A study of Mus musculus with 217 samples.

Results

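*Ddit4l* and 6 further genes whose products hold back the kinase mTOR were followed in the striatum and cortex of LacQ140 mice. The 6 are *Sesn1*, *Sesn3*, *Deptor*, *Castor1*, *Tsc1* and *Tsc2*. LacQ140 is a model of Huntington's disease (HD) in which mutant huntingtin (m*Htt*) can be lowered. The authors describe this lowering as moderate. The 7 genes were chosen by name out of 54532 in the count tables, with earlier results of these data known. *Ddit4l* was selected on its low level in LacQ140 striatum at 6 months, so that contrast, and the other 6-month striatal contrasts of *Ddit4l* that use the same LacQ140 or WT + IPTG libraries, are given as a description with no test. All 7 genes were found in both tables and had counts in both tissues at both ages.

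All mice were on the C57BL/6 background and carried a beta-actin-LacIR transgene, a Lac repressor under the ubiquitous beta-actin promoter, whose repression is relieved by IPTG. Mutant mice were Hdh(LacO-140Q/+), with 1 expanded allele behind Lac operators, and control mice were labelled Hdh(LacO-+/+). LacQ140 mice received IPTG from embryonic day 5 until collection and so expressed m*Htt* throughout. In LacQ140_A mice, which never received IPTG, m*Htt* was lowered from conception, and in LacQ140_2M and LacQ140_8M mice IPTG was withdrawn at 2 and 8 months of age. WT mice without IPTG and WT + IPTG mice, treated from embryonic day 5, served as controls. LacQ140 mice were on IPTG at collection, and the lowered groups and WT mice were not. In contrasts of these with LacQ140, the absence of IPTG cannot be told apart from m*Htt* lowering or genotype. RNA-Seq gave 217 libraries (107 of striatum, 110 of cortex), collected at 6 or 12 months of age (LacQ140_8M at 12 months only), with 10 mice per group (5 females and 5 males) except 9 in the striatal WT, LacQ140 and LacQ140_8M groups at 12 months.

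Each library held between 33292014 and 68038785 counts in sum. The 2 ages were deposited as separate tables and labelled as separate batches, so age and batch cannot be told apart. Levels are given in TMM-scaled CPM, and a gene was called where its edgeR adjusted p was under 0.05 and its change at least 20%. *Htt*, counted over both alleles, was lower in LacQ140_A than in WT striatum at 6 and 12 months (log2 fold changes of -0.40 and -0.52, both called). LacQ140 itself lay below WT by -0.19 and -0.27, so the fold against WT holds both the allele and its lowering, and against LacQ140 the LacQ140_A values were -0.22 (adjusted p = 0.075) and -0.25 (adjusted p = 0.049), under the 20% bound. In LacQ140_8M striatum at 12 months *Htt* stood at 110.9 CPM against 111.0 CPM in LacQ140, with LacQ140_2M at 100.3 CPM. In 12-month cortex it was 23.88 CPM in LacQ140, 16.99 in LacQ140_A, 17.74 in LacQ140_2M and 17.99 in LacQ140_8M. For protein, the authors report less soluble mutant huntingtin in the striatum of each lowered group than in LacQ140. The striatal libraries carried summed levels of 10 markers of striatal projection neurons between 4309 and 10470 CPM, and each of the 10 was seen in every group. The 12-month cortical libraries differed from the others in the slope of log2 CPM on log2 transcript length, which ran from -0.293 to 0.161 there and from 0.192 to 0.65 in the 6-month cortex.

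mTOR is the kinase of 2 complexes, mTORC1 and mTORC2, that couple growth signals, amino acids and energy to protein synthesis and autophagy. Growth factors reach mTORC1 through AKT, which inactivates the TSC1-TSC2 complex, the brake on the small GTPase RHEB. The stress-induced proteins DDIT4 (REDD1) and DDIT4L (REDD2) act through that complex, sestrins and CASTOR1 sense amino acids upstream of the Rag GTPases, and DEPTOR binds the kinase itself. In striatal neurons mTOR signaling has been studied together with RASD2 (Rhes), a GTPase enriched in striatum.

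*Ddit4l* (ENSMUSG00000046818) lies on the plus strand of chr3:137621612-137628333 in GRCm38. The 250 bases before its RefSeq start are shown with those of *Castor1* because these members fell farthest in 12-month LacQ140 striatum. Both stretches come from RefSeq (GRCm38.p6, chr3:137623422-137623671 and chr11:4217975-4218224, plus strand) and are written 5′ to 3′ with GC boxes (GGGCGG on either strand) in capitals. The GENCODE gene of *Ddit4l* starts farther upstream than the RefSeq start, so its stretch lies inside the annotated gene, but it overlaps no annotated exon.
Ddit4l: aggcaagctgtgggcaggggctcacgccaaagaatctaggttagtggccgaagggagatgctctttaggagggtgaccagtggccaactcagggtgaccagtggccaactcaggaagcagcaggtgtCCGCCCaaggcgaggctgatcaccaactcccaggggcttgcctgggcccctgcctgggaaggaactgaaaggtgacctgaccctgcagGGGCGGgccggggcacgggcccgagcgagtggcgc
Castor1: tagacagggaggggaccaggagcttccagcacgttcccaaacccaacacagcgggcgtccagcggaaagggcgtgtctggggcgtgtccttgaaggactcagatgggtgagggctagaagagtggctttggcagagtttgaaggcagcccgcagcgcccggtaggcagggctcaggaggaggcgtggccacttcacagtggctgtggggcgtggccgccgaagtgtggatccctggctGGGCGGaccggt
A further stretch, at chr3:137623695-137623721 within exon 1 of Ddit4l-201, is shown for its TATA box letters (TATAAA), in capitals.
Ddit4l TATA: agaggcgggaccTATAAAgcgctctcc

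In windows of 250 bases before and 50 after the start, TATAAA on either strand stood in 13.62% of 32851 RefSeq promoter windows and, among the 6 members with a window, in that of *Ddit4l* alone. GGGCGG stood in 35.66% of windows and in those of *Ddit4l*, *Sesn1*, *Sesn3* and *Castor1*. The E-box CACGTG (7.15% of windows) and the cyclic AMP response element TGACGTCA (1.79%) were matched in no member, and the FOXO site GTAAACA (3.65%) was matched in *Sesn1*. The *Ddit4l* stretch holds a run of 21 bases that is repeated directly behind itself, and 1.21% of windows hold a run of that length repeated without overlap at any spacing. These are matches of letters and were not tested as binding sites. The other members, all placed in GRCm38, are *Sesn1* (chr10:41809935-41908424), *Sesn3* (chr9:14275067-14333101), *Deptor* (chr15:55112317-55259271), *Castor1* (chr11:4218225-4222409), *Tsc1* (chr2:28641228-28691167) and *Tsc2* (chr17:24595816-24632630, minus strand).

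To place the genes on one scale, CPM were divided by the length of each gene's exons in kb. In WT + IPTG striatum at 6 months *Sesn1* (19.4 ± 1.34 CPM per kb, SD, n = 10) and *Sesn3* (16.1 ± 1.64) were highest, followed by *Ddit4l* (10.98 ± 1.81), *Tsc2* (9.31 ± 0.923), *Tsc1* (5.75 ± 0.592), *Castor1* (2.92 ± 0.533) and *Deptor* (2.29 ± 0.289). In this order *Ddit4l* and *Tsc2* differed by less than the SD of *Ddit4l*, and the other neighbours by more than either SD. At 12 months *Ddit4l* stood at 10.7 CPM per kb in WT + IPTG striatum and at 10.1 in WT + IPTG cortex. In WT mice, *Ddit4l* did not pass the test between striatum and cortex at 6 months (log2 difference 0.15, edgeR adjusted p = 0.13), where 28.6% of genes were called, and was lower in striatum at 12 months (-0.35), where 44.2% were called. In WT + IPTG mice the same difference was -0.08 at 12 months (adjusted p = 0.63) and, as a description, 0.30 at 6 months. At 12 months the tissue difference and the shifted length slope of the cortical libraries cannot be told apart.

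In striatum at 6 months, *Ddit4l* was at 34.02 ± 2.94 CPM (SD, n = 10) in WT mice, with a lowest library of 30.4, a median of 33.5 and a highest of 40.2. In WT + IPTG mice it ran from 25.6 through a median of 30.6 to 40.1 CPM. In LacQ140 mice it ran from 6.17 through a median of 10.8 to 13.9 CPM. All 10 LacQ140 libraries lay below all 20 control libraries. The mean fold was 0.324 of WT + IPTG, the contrast by which the gene was chosen. LacQ140_A libraries lay between 19.1 and 30.8 CPM (median 21.9) and LacQ140_2M libraries between 16.9 and 24.2 CPM (median 21.4). Both lowered groups therefore stood above every LacQ140 library and mostly below the controls.

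In the 12-month striatum, from other mice, *Ddit4l* was 27.2 ± 2.67 CPM in WT (n = 9; lowest 23.2, median 26.8, highest 32.3). WT + IPTG libraries ran from 21.4 through a median of 31.98 to 37.1 CPM (mean 31.2 ± 4.82, n = 10). LacQ140 libraries ran from 5.47 through a median of 6.76 to 8.54 CPM (mean 6.76 ± 0.943, n = 9). Every LacQ140 library was below every control library, and *Ddit4l* was at 0.217 of the WT + IPTG level (log2 fold change -2.21 ± 0.09, SE; edgeR quasi-likelihood test, adjusted p = 8.7e-30). In this comparison 9.44% of all genes tested were called. Against WT without IPTG the log2 fold change was -2.01. IPTG itself gave 0.20 in WT striatum at 12 months (adjusted p = 0.31).

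**Figure D1:**
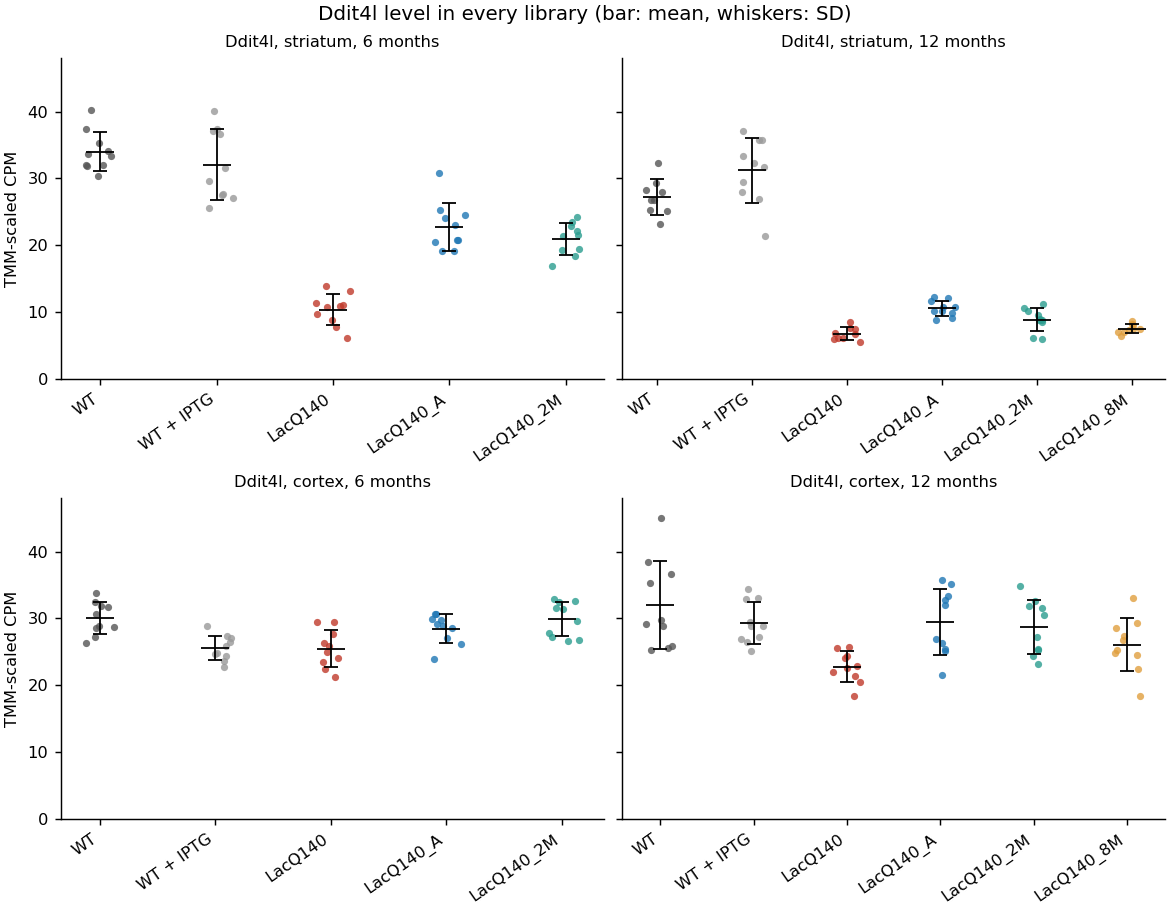
*Ddit4l* level (CPM, TMM-scaled) in every library by group, for both tissues and ages, with 1 point per mouse, a bar at each group mean and whiskers for the SD. In the striatum LacQ140 libraries reach at most 13.9 CPM at 6 months and 8.54 CPM at 12 months, below every WT and WT + IPTG library, whereas in the cortex the groups overlap.

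In the cortex the groups overlapped at both ages. At 6 months *Ddit4l* was 25.5 ± 2.81 CPM in LacQ140 (21.2 to 29.5, median 25.4) and 25.6 ± 1.86 in WT + IPTG (22.7 to 28.8, median 25.3), with a log2 fold change of 0.00 ± 0.06 (adjusted p = 1; 0.881% of all genes called). Against WT it was -0.24 there (adjusted p = 0.016), under the 20% bound. WT mice had no IPTG, and IPTG alone (WT + IPTG against WT) gave -0.23 in that cortex. At 12 months it was 22.8 ± 2.31 CPM in LacQ140 (18.4 to 25.8, median 22.7) and 29.3 ± 3.15 in WT + IPTG (25.2 to 34.4, median 28.8), a log2 fold change of -0.37 ± 0.10 that did not pass the test (adjusted p = 0.12), in a comparison where 0.0899% of genes were called. Against WT it was called (-0.49, adjusted p = 0.0054), and so it was in 3 other alternatives. Libraries of the 12-month cortex were those with the shifted length slope, whose part in this value was not tested beyond a fit with the slope as a covariate (-0.31, adjusted p = 0.036). Choroid plexus and pituitary markers in 12-month cortex had a median sum of 567.5 CPM in LacQ140, 14.63 in WT and 21.06 in WT + IPTG. Their ranges overlapped, and their part was not tested. Lowered groups lay within the range of the cortical controls or near it. At 6 months *Ddit4l* was 30.02 ± 2.43 CPM in WT, 28.5 ± 2.17 in LacQ140_A and 29.9 ± 2.56 in LacQ140_2M cortex. At 12 months it was 31.99 ± 6.58 CPM in WT (25.3 to 45, median 29.4), 29.4 ± 4.93 in LacQ140_A (21.5 to 35.7), 28.7 ± 4.07 in LacQ140_2M (23.2 to 34.9) and 26.1 ± 3.99 in LacQ140_8M (18.4 to 33.1). None of these lowered groups passed the edgeR test against WT, where the values lay between -0.08 and -0.01 at 6 months and between -0.30 and -0.12 at 12 months. Of all genes, 153 and 40 of 35987 were called there in LacQ140_A and LacQ140_2M at 6 months. At 12 months 6, 31 and 13 of 34493 were called in LacQ140_A, LacQ140_2M and LacQ140_8M. None of the groups passed against LacQ140, where LacQ140_A was the highest at 12 months (0.37, adjusted p = 0.18). Against LacQ140 only 3 and 0 of all genes were called at 6 months, and 15, 29 and 0 at 12 months, in the same order of groups.

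The striatal and cortical effects were then compared in a joint model over mice with both tissues, which dropped 3 mice at 12 months. The *Ddit4l* contrast of LacQ140 with WT + IPTG was stronger in striatum by -1.84 ± 0.15 on the log2 scale (edgeR adjusted p = 9.6e-15), where 2.8% of genes were called. None of the other 6 members was called for this difference, although *Deptor* (-0.55, adjusted p = 0.11), *Tsc1* (-0.35) and *Sesn3* (-0.31) were at an unadjusted p under 0.05. For the lowered groups against WT the corresponding differences of *Ddit4l* were -1.31 in LacQ140_A, -1.53 in LacQ140_2M and -1.59 in LacQ140_8M at 12 months, all called, beside 0.577%, 0.66% and 2.17% of genes. At 6 months they were -0.70 in LacQ140_2M (adjusted p = 0.00077; 0.0579% of genes called) and -0.52 in LacQ140_A, which did not pass (adjusted p = 0.07).

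Markers of striatal projection neurons, the main neuron of the striatum, moved with *Ddit4l*. In 12-month striatum 9 of 10 were lower in LacQ140 than in WT + IPTG, and their summed level ran from 4309 to 5397 CPM (median 5033) against 7446 to 10470 (median 9135). The summed level was 5381 to 7035 CPM in LacQ140_A, 4313 to 6837 in LacQ140_2M, 4644 to 5905 in LacQ140_8M and 8477 to 9715 in WT. At 6 months 9 of 10 were lower as well, with 4950 to 6350 CPM in LacQ140 against 6102 to 9046 in WT + IPTG. In bulk tissue fewer cells of a type and less RNA per cell cannot be told apart, and the part of these markers in the *Ddit4l* values was not tested. Markers of cortical excitatory neurons summed to 28.8 to 353.0 CPM in LacQ140 and 19.1 to 95.6 in WT + IPTG at 12 months, and 3 of 7 were higher. They can mark carried-over cortex, which was not tested here. Of the astrocyte, oligodendrocyte, microglia, endothelial and choroid plexus markers, 1 of 6, 2 of 6, 1 of 6, 2 of 5 and 1 of 6 were lower, and none was higher. At 6 months 4 of 6 microglia and 3 of 6 oligodendrocyte markers were lower. Without any single library, that of 353.0 CPM included, the *Ddit4l* fold change stayed between -2.26 and -2.17.

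Next, the lowered groups were compared with WT and LacQ140, to ask how *Ddit4l* stood when m*Htt* was lowered from different ages. Against LacQ140 these groups also differ in IPTG, whose part was not tested. In 12-month striatum the order of the means was WT + IPTG, WT, LacQ140_A, LacQ140_2M, LacQ140_8M and LacQ140. LacQ140_A libraries ran from 8.81 through a median of 10.4 to 12.2 CPM (mean 10.5 ± 1.17, n = 10). LacQ140_2M libraries ran from 5.88 through 8.86 to 11.2 CPM (mean 8.84 ± 1.73, n = 10). LacQ140_8M libraries ran from 6.42 through 7.39 to 8.67 CPM (mean 7.49 ± 0.690, n = 9). LacQ140_A did not overlap LacQ140, LacQ140_2M overlapped it in part, and LacQ140_8M spanned nearly the same range.

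Against LacQ140 at 12 months, *Ddit4l* was 1.56-fold higher in LacQ140_A (log2 0.64 ± 0.09, edgeR adjusted p = 3e-06; 0.91% of genes called). It was higher in LacQ140_2M by 0.39 ± 0.09 (adjusted p = 0.016; 0.608% of genes called), a call lost without LacQ140_2M mouse F1 (0.35), F2 (0.36) or M5 (0.37). The call was also lost with only the 2 groups in the fit (edgeR adjusted p = 0.074). In LacQ140_8M the difference of 0.15 ± 0.10 did not pass the test (adjusted p = 0.86; 0.00565% of genes called). LacQ140_8M stood lower than LacQ140_A by 0.49 ± 0.09 (adjusted p = 0.0014; 0.972% of genes called), with no overlap of libraries. Against LacQ140 at 12 months, 5 of 10 projection neuron markers were higher in LacQ140_A and 5 in LacQ140_2M, and their part in these values was not tested. The steps from LacQ140_A to LacQ140_2M and from LacQ140_2M to LacQ140_8M were -0.25 each and did not pass (adjusted p = 0.46 for each).

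All 3 lowered groups remained far below WT at 12 months. The *Ddit4l* level was 0.387 of WT in LacQ140_A (log2 -1.37 ± 0.09, edgeR adjusted p = 7.9e-20; 3.15% of genes called), 0.326 in LacQ140_2M (-1.62 ± 0.09; 4.09% called) and 0.275 in LacQ140_8M (-1.86 ± 0.09; 7.77% called). No lowered library reached the lowest WT library of 23.2 CPM. At 6 months the deficit was smaller: 0.669 of WT in LacQ140_A (-0.58 ± 0.09, adjusted p = 0.00011, ranges overlapping; 0.91% of genes called) and 0.616 in LacQ140_2M (-0.70 ± 0.09, adjusted p = 8.1e-07, no overlap; 0.936% called). Projection neuron markers moved with these deficits: against WT, 9 of 10 were called lower in each of the 3 lowered groups at 12 months, and 1 in LacQ140_A and 3 in LacQ140_2M at 6 months. At 12 months 1, 2 and 3 of 6 oligodendrocyte markers were lower and 1, 1 and 2 of 7 cortical excitatory markers higher in LacQ140_A, LacQ140_2M and LacQ140_8M, and 1 of 6 astrocyte and 1 of 5 endothelial markers were lower in LacQ140_8M. At 6 months 1 of 6 oligodendrocyte markers was lower in each lowered group, and 2 of 6 choroid plexus and pituitary markers were higher in LacQ140_A. The part of these markers was not tested. LacQ140_A and LacQ140_2M differed in *Ddit4l* by 0.12 at 6 months, which did not pass (adjusted p = 0.84; 0.0251% of genes called).

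**Figure D2:**
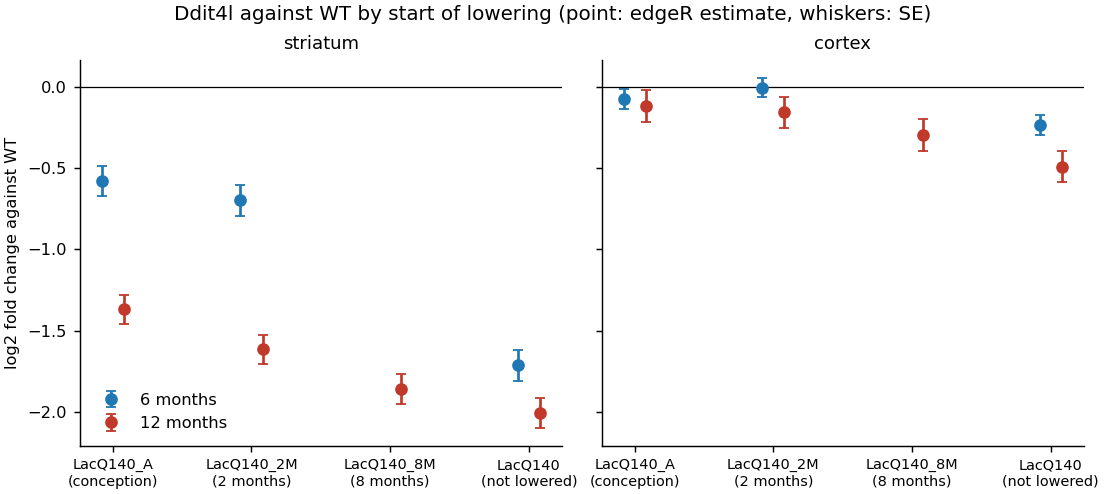
log2 fold change of *Ddit4l* against WT for the lowered groups and LacQ140 in striatum and cortex, with points for the edgeR estimate (blue at 6 months, red at 12 months) and whiskers for the SE. In 12-month striatum LacQ140_A, LacQ140_2M and LacQ140_8M stand at -1.37, -1.62 and -1.86, farther below WT than LacQ140_A and LacQ140_2M at 6 months (-0.58 and -0.70).

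The change of this deficit between ages was tested in a model over both tables. Against WT, the 12-month deficit was larger than that at 6 months by -0.79 ± 0.14 in LacQ140_A (edgeR adjusted p = 5.9e-05; 1.55% of genes called) and by -0.92 ± 0.14 in LacQ140_2M (adjusted p = 4.5e-06; 0.554% called). None of the other members was called for either difference, with *Deptor* (both groups) and *Castor1* (LacQ140_2M) at an unadjusted p under 0.05. The 2 ages were also 2 batches, so the contrast with same-table WT mice removes only what a batch does alike to both groups.

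Sex was looked at within each tissue and age. In 6-month striatum, as a description, the *Ddit4l* level of females was 1.18 times that of males. In the other 3 tissue and age sets the edgeR test of sex was not passed. IPTG alone gave -0.23 in 6-month cortex (adjusted p = 0.054).

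*Castor1* and *Deptor* were the other members called lower in LacQ140 striatum at 12 months, making 3 of 7 against the 9.44% of all genes, with a median log2 fold change of -0.20 over the 7 and 0 over all genes. DESeq2 called the same 3. This count includes *Ddit4l*, whose choice rests on the same contrast at 6 months, and is a description of 7 named genes. At 6 months, 2 of 7 (*Ddit4l* and *Castor1*) were past the bounds against 7.93% of all genes, from which nothing was read.

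*Castor1*, the arginine sensor that holds back GATOR2 when arginine is low, had a low level throughout. In 12-month striatum it ran from 4.42 through a median of 5.09 to 5.62 CPM in WT and from 3.21 through 4.29 to 5.98 in WT + IPTG. In LacQ140 it ran from 2.02 through 2.97 to 3.56 CPM. LacQ140 did not overlap WT and overlapped WT + IPTG at its lower end. The log2 fold change was -0.59 ± 0.12 against WT + IPTG (edgeR adjusted p = 0.00014) and -0.79 against WT (adjusted p = 9.9e-07). LacQ140_A mice had more *Castor1* than LacQ140 mice (4.22 ± 0.935 against 2.89 ± 0.463 CPM; 0.55 ± 0.12, adjusted p = 0.0053) and did not pass against WT (-0.24, adjusted p = 0.32). Within LacQ140_A the sexes did not overlap: the 5 females ran from 4.73 to 5.86 CPM and the 5 males from 3.07 to 3.61, against 2.48 to 3.56 in female and 2.02 to 3.34 in male LacQ140 mice. The sexes were also apart in LacQ140_8M striatum (3.13 to 3.74 CPM in 4 females, 2.56 to 2.97 in 5 males) and in LacQ140_A cortex at 12 months (3.85 to 4.71 and 1.47 to 3.77). They overlapped in WT striatum (4.55 to 5.57 and 4.42 to 5.62) and in LacQ140_2M striatum (3.61 to 4.88 and 2.48 to 4.73). In WT + IPTG striatum the mean of males was the higher (4.952 against 3.801 CPM). In 12-month WT + IPTG cortex males ran from 3.38 to 5.28 CPM and females from 2.58 to 3.42. Over all groups the test of sex was not passed in 12-month striatum (0.15, adjusted p = 0.4). Whether the difference of LacQ140_A from LacQ140 depended on sex was not tested.

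In the groups lowered later *Castor1* stood nearer to LacQ140. LacQ140_2M was at 3.76 ± 0.843 CPM, which did not pass against LacQ140 (0.38, edgeR adjusted p = 0.17) and was called lower against WT (-0.41, adjusted p = 0.019) but not against WT + IPTG (-0.21, adjusted p = 0.31). The call against WT was lost without LacQ140_2M mouse M1 or M3 (adjusted p up to 0.06). LacQ140_8M was at 3.01 ± 0.378 CPM (2.56 to 3.74), lower than WT with no overlap (log2 -0.72, adjusted p = 7.8e-06) and lower than LacQ140_A (-0.48, adjusted p = 0.027). *Ddit4l* and *Castor1* were the 2 of 7 members called higher in LacQ140_A than in LacQ140 at 12 months (0.91% of all genes), and the 2 called lower in LacQ140_8M than in LacQ140_A (0.972%). The *Castor1* call against LacQ140_A was lost when any 1 of 9 libraries was left out. Among the other alternatives its edgeR adjusted p reached 0.27.

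At 6 months *Castor1* moved with IPTG in mice without m*Htt*. It was 4.60 ± 0.839 CPM in WT + IPTG and 3.48 ± 0.579 in WT striatum, a log2 fold change of 0.41 ± 0.10 (edgeR adjusted p = 0.044; 0.584% of genes called), and 0.55 ± 0.13 in cortex (adjusted p = 0.03; 0.609% called). The striatal call was lost when any 1 of 17 of the 20 libraries was left out, and the cortical call when any 1 of 10 was. Among the other alternatives the edgeR adjusted p reached 0.067 in striatum and 0.057 in cortex. At 12 months no member was called for IPTG by edgeR, in striatum (0.218% of genes called, 3 members at an unadjusted p under 0.05, none by DESeq2) or in cortex (0% called, 2001 of all genes and no member at an unadjusted p under 0.05, and 15 genes, none of them a member, by DESeq2). LacQ140 striatum at 6 months stood at 3.67 ± 0.631 CPM, below WT + IPTG (-0.33, as a description) and level with WT (0.08). The direction of the 6-month *Castor1* contrast therefore depended on the control.

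**Figure D3:**
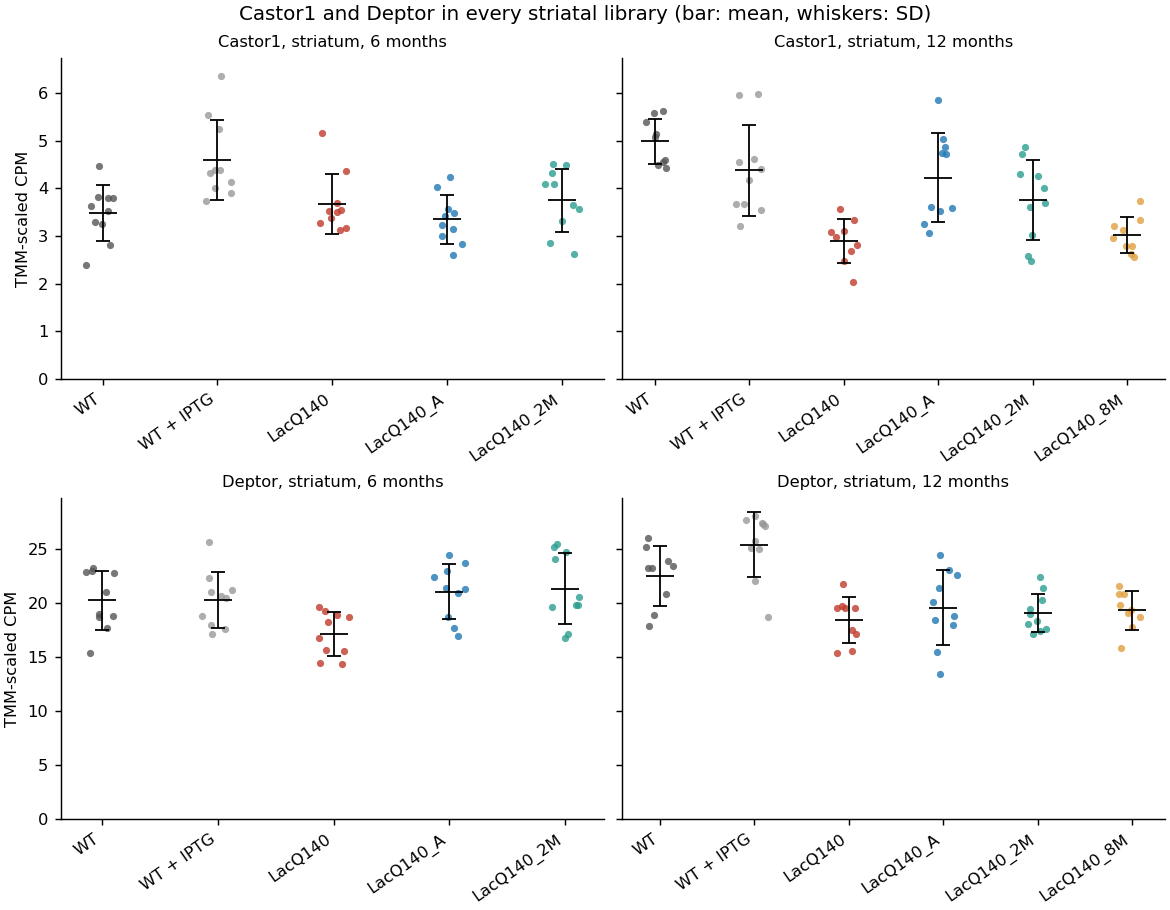
*Castor1* and *Deptor* levels (CPM) in every striatal library by group at 6 and 12 months, with 1 point per mouse, a bar at each group mean and whiskers for the SD. At 12 months *Castor1* is at most 3.56 CPM in LacQ140 and at least 4.42 CPM in WT, while *Deptor* overlaps between all groups.

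*Deptor*, which binds mTOR in both complexes, was lower in 12-month LacQ140 striatum without separating the groups. It ran from 15.4 through a median of 19.5 to 21.8 CPM in LacQ140, against 18.7 through 26.5 to 28.1 in WT + IPTG and 17.9 through 23.3 to 26.1 in WT. The log2 fold change was -0.47 ± 0.08 against WT + IPTG (edgeR adjusted p = 8.3e-06) and -0.29 against WT (adjusted p = 0.01). At that age the lowered groups differed little from LacQ140: by 0.09, 0.05 and 0.07 in LacQ140_A, LacQ140_2M and LacQ140_8M, none of which passed. At 6 months *Deptor* was 17.2 ± 2.04 CPM in LacQ140 and higher in LacQ140_A (21.1; 0.30 ± 0.08, adjusted p = 0.033; 1.88% of genes called) and LacQ140_2M (21.4; 0.31 ± 0.08, adjusted p = 0.027; 1.26% called), calls that were lost when any 1 of 11 and of 9 libraries was left out. Among the other alternatives the LacQ140_2M value went as low as 0.231, under the 20% bound. In these comparisons 9 and 7 of 10 projection neuron markers were higher and 1 of 7 cortical excitatory markers was lower in each, and 3 of 6 choroid plexus and pituitary markers were higher in LacQ140_A, whose part was not tested. *Deptor* shares exon bases with *Gm9920* on the other strand, and whether counting used strand is not given in the sources used here.

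The sestrins, stress-induced inhibitors of mTORC1, moved less. *Sesn1*, a target of p53, was 49.7 ± 3.58 CPM in 12-month LacQ140 striatum (45.4 to 55.0) and 56.9 ± 2.96 in WT + IPTG (51.4 to 62.3), a log2 fold change of -0.20 ± 0.06 with an edgeR adjusted p of 0.009, under the 20% bound and so not called. *Sesn3*, a FOXO target and the most abundant member per kb in 12-month striatum, was 267.6 ± 25.0 against 300.2 ± 32.7 CPM (-0.17 ± 0.07, adjusted p = 0.078). Of the 7 members *Sesn3* had the largest difference between tissues, being higher in WT striatum than cortex by 0.57 at 6 months and by 2.42 at 12 months, both called. In 12-month cortex a difference between tissues and the shifted length slope cannot be told apart.

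*Tsc1* and *Tsc2*, the scaffold and the GTPase-activating subunit of the TSC complex, were not called in LacQ140 striatum. At 12 months *Tsc1* was 79.7 ± 8.32 CPM in LacQ140 and 84.9 ± 6.89 in WT + IPTG (-0.09, edgeR adjusted p = 0.48), and *Tsc2* was 114.2 ± 5.81 and 118.6 ± 6.42 CPM (-0.05, adjusted p = 0.59). At 6 months *Tsc1* stood at 77.5 and 68.1 CPM and *Tsc2* at 89.8 and 89.6 CPM in the same groups. *Tsc2* shares 693 exon bases with *Pkd1* on the other strand. In cortex none of the 7 members was called by edgeR or DESeq2 between LacQ140 and WT + IPTG at either age. By edgeR 0.881% of all genes were called there at 6 months and 0.0899% at 12 months. At an unadjusted p under 0.05 there were 0 members at 6 months and 3 at 12 months. Against WT, *Ddit4l* was called in 12-month cortex.

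**Figure D4:**
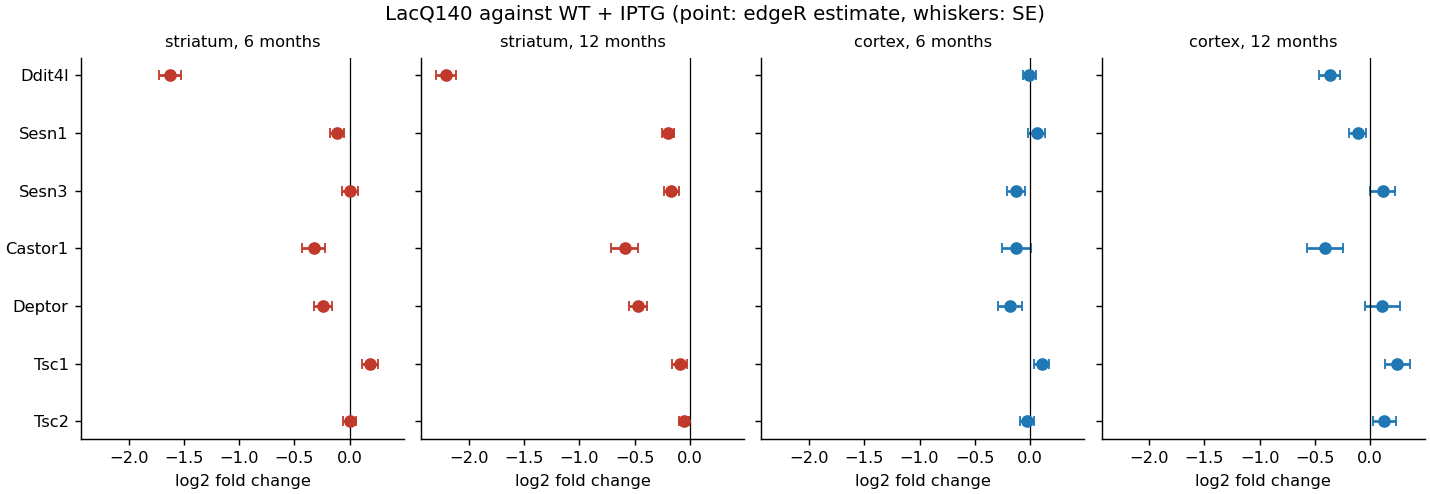
log2 fold change of LacQ140 against WT + IPTG for the 7 members in both tissues at both ages, with points for the edgeR estimate (red in striatum, blue in cortex) and whiskers for the SE. *Ddit4l* stands at -2.21 in 12-month striatum, *Castor1* at -0.59 and *Deptor* at -0.47, and no cortical value was called.

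The closest paralogs of the members are *Ddit4*, *Sesn2* and *Castor2*. *Ddit4*, the better-known stress gene of the pair, was 54.3 CPM in 12-month LacQ140 striatum and 63.9 in WT + IPTG (log2 -0.24, edgeR adjusted p = 0.25), against the -2.21 of *Ddit4l*. It was higher in LacQ140_A, at 76.9 CPM, than in LacQ140 (0.50 ± 0.12, adjusted p = 0.015), and lower in LacQ140 than in WT (-0.43, adjusted p = 0.014). *Sesn2*, the leucine sensor, gave 0.16 at 12 months (adjusted p = 0.2) and 0.27 at 6 months, the latter as a description. *Castor2* was not called in any comparison of groups within a tissue and age.

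The remaining mTOR pathway was described by 70 further genes from lists of paralogs, brakes, complex subunits, activators and substrates. In 12-month LacQ140 striatum 1 was higher and 6 were lower, with a median log2 fold change of -0.01 against 0 for all genes, so the share called stood near the 9.44% of all genes. The 6 lower against WT + IPTG were *Rasd2*, which encodes the striatal GTPase Rhes (-0.67 ± 0.06; 637.4 against 1010 CPM), the insulin pathway genes *Akt2* (-0.55), *Irs2* (-0.42) and *Pdpk1* (-0.30), the Rag GTPase *Rragd* (-0.41) and the mTORC2 subunit *Prr5* (-0.33). *Telo2*, needed for the assembly of mTOR complexes, was higher (0.30 ± 0.07). Against WT in place of WT + IPTG, *Rasd2* (-0.67), *Akt2* (-0.38), *Rragd* (-0.45) and *Telo2* (0.34) were called as well, whereas *Irs2* (-0.08, edgeR adjusted p = 0.77) and *Prr5* (-0.20, adjusted p = 0.093) did not pass and *Pdpk1* (-0.24, adjusted p = 0.018) was under the 20% bound. Of the 6 lower genes, 5 belong to the 29 activators upstream of mTORC1, whose values ran from -0.67 to 0.24. None of the 13 other brakes (-0.14 to 0.19, 4 at an unadjusted p under 0.05 and 0 called by DESeq2) and none of the 16 substrates and effectors (-0.25 to 0.21, 4 at an unadjusted p under 0.05 and 0 called by DESeq2) was called. At 6 months, as a description and beside 7.93% of all genes, 2 of the 70 were past the bounds upward, *Sesn2* (0.27) and the brake *Grb10*, an adaptor of the insulin receptor (0.30), and 2 downward, *Rheb*, the GTPase that activates mTORC1 (-0.27), and *Akt2* (-0.38).

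**Figure D5:**
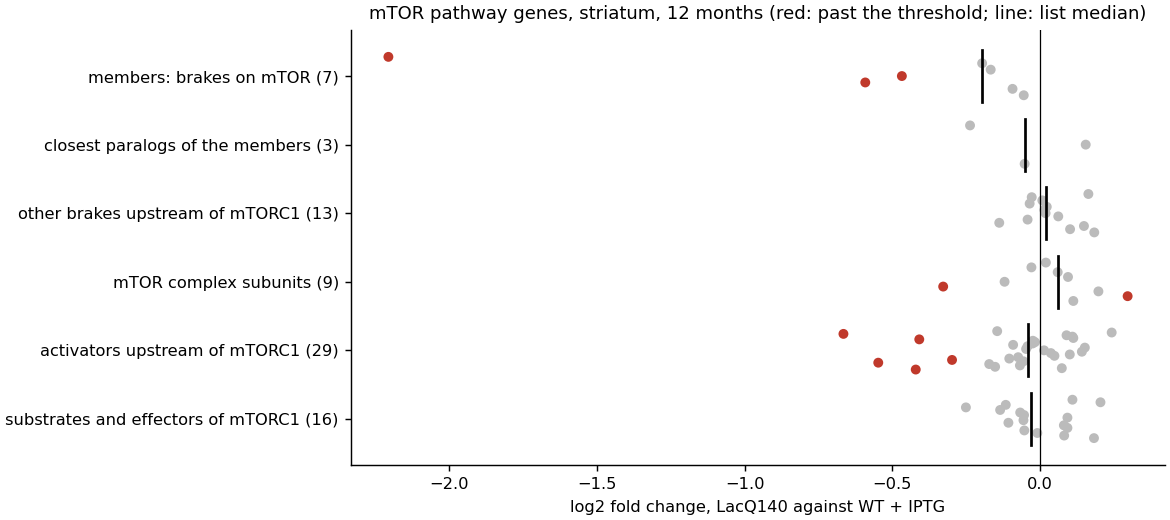
log2 fold change of LacQ140 against WT + IPTG in 12-month striatum for the members and the other listed mTOR pathway genes, 1 row per list, with 1 point per gene, called genes in red and a line at each list's median. *Ddit4l* lies apart at -2.21, and the other listed genes lie between -0.67 and 0.30.

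Few of the 70 pathway genes were called in contrasts of the lowered groups. Against LacQ140 at 12 months 1 was called higher in LacQ140_A (*Ddit4*), 1 in LacQ140_2M (*Rasd2*) and none in LacQ140_8M (8 at an unadjusted p under 0.05, 0 by DESeq2), beside the 0.91%, 0.608% and 0.00565% of all genes. Against WT at 12 months 3 were called in LacQ140_A (3.15% of all genes), 2 in LacQ140_2M (4.09%) and 8 in LacQ140_8M (7.77%), 4 of them higher and 4 lower. In 12-month striatum *Rasd2* was higher in LacQ140_2M than in LacQ140 by 0.28 (edgeR adjusted p = 0.0025) and stayed below WT in each of the 3 lowered groups (-0.44, -0.39 and -0.55 in LacQ140_A, LacQ140_2M and LacQ140_8M). *Rragd* was below WT in the same groups (-0.33, -0.29 and -0.27), and *Rhebl1*, a relative of *Rheb*, was above WT in LacQ140_A (0.30). LacQ140_8M differed from WT also in *Akt2* (-0.33), *Eif4ebp1*, a substrate of mTORC1 (-0.36), *Irs1* (0.54), *Ulk1*, the autophagy kinase (0.31), *Flcn* (0.30) and *Telo2* (0.27). At 6 months *Rasd2* (0.29 in each) and *Akt2* (0.32 and 0.28) were higher in LacQ140_A and LacQ140_2M than in LacQ140. Against WT at 6 months 1 gene was called in LacQ140_A, *Lamtor3* of the Ragulator complex (-0.26; 0.91% of all genes), and none in LacQ140_2M (14 at an unadjusted p under 0.05, 0 by DESeq2). In cortex 1 of the 70 genes was called lower in LacQ140 at 6 months, beside 0.881% of all genes, and none at 12 months, beside 0.0899% (13 at an unadjusted p under 0.05 and 0 called by DESeq2).

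Finally, the genes whose pattern was most like that of *Ddit4l* were listed over 14674 genes with a mean of at least 1 CPM in striatum. Over the 11 group means, taken relative to WT + IPTG of the same age, Pearson's r was highest for *Rgs4* (0.995), *Clspn* (0.993), *Tpm2* (0.991), *Arpp21* (0.991) and *AI197445* (0.991). These points share control groups and the libraries that chose *Ddit4l*. *Rgs4*, a regulator of G protein signaling, went from 823.0 to 526.1 CPM at 6 months and from 781.7 to 432.9 at 12 months between WT + IPTG and LacQ140. Within groups, over 107 striatal libraries, the highest values were those of *Otub2* (0.701), *Trmt1l* (0.699), *P4ha1* (0.677), *Fancb* (0.666) and *Kcnv1* (0.665), none of them in the first list. Among members, *Deptor* was the closest over group means (0.888, rank 755) and *Sesn3* within groups (0.382, rank 629), and *Castor1* was at -0.208 within groups. Libraries share depth and dissection, and these values are descriptions without a test.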

How the data were processed

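Total RNA of striatum and cortex was sequenced by the authors (paired-end, Illumina NovaSeq). The authors deposited expected counts per gene without normalization, one table per age with 217 samples in all. The submitters' notes name GRCm38, and the aligner and quantification program are not given in the sources used here. Of the values above 0, 26.79% were not whole, and expected counts were rounded before testing. Identifiers were matched to GENCODE vM21 (54495 of 54532). Groups, sex and replicate labels were taken from the sample labels. The labels do not say whether replicates are separate litters, and each is 1 mouse.

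In R 4.3.3, edgeR 4.0.16 was used for quasi-likelihood F-tests with TMM factors across all genes with at least 1 count in a tissue and age, between 34493 and 35987, with Benjamini-Hochberg adjustment and group as the only term. The SE was taken from the F statistic. Called genes had an adjusted p under 0.05 and a change of at least 20%. Tissue and age differences were interaction terms in joint fits over both tissues or both ages. The scripts were tested on simulated data with known changes. Levels are CPM with TMM factors, given per kb of exon where genes are compared. Depth lay between 33292014 and 68038785 counts per library.

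The members, the gene lists and the comparisons were chosen with earlier results of these data known. Named genes are the members, their closest paralogs, the listed pathway genes called in the comparison described, and the 5 genes most like *Ddit4l*. Alternatives were DESeq2 1.42.0, filterByExpr, DESeq2's size factors, no fold change bound, a replicate block, sex as a term, fits restricted to the 2 groups compared, other controls, each library's length slope as a term and leaving out each library. Python 3.11.15, numpy 2.4.6, pandas 2.3.3 and matplotlib 3.10.9 were used.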

Additional observations from a re-analysis of the deposited data

Results flagged for a closer look

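Within 154 groups of libraries of 1 member gene, 5 held a library far from the others by Dixon's test, and chance flags about 1 in 20 groups. For *Ddit4l* this was the LacQ140_A mouse F5 in 6-month striatum, at 30.8 CPM against 25.3 in the next library. For *Sesn1* it was the LacQ140 mouse F5 in 6-month cortex, at 122.9 CPM against 93.8. For *Castor1* there were 3 such libraries, all in cortex: 7.32 CPM in WT + IPTG mouse M2 at 6 months (next 5.61), 7.41 CPM in LacQ140 mouse F5 at 6 months (next 4.94) and 5.15 CPM in LacQ140 mouse F4 at 12 months (next 3.27). The 6-month LacQ140 mouse F5 was the one that stood out in cortex for both *Sesn1* and *Castor1*.

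*Ddit4l* differed between tissues by a test of the difference itself (edgeR, joint fit). The log2 difference between striatum and cortex was -1.84 for LacQ140 against WT + IPTG at 12 months, -1.31, -1.53 and -1.59 for LacQ140_A, LacQ140_2M and LacQ140_8M against WT at 12 months, and -0.70 for LacQ140_2M against WT at 6 months, where LacQ140_A (-0.52, adjusted p = 0.07) did not pass. It also differed between ages in striatum, by -0.79 for LacQ140_A and -0.92 for LacQ140_2M against WT.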

How the results depend on the processing

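Of 1477 values recomputed under an alternative for 70 results, 1398 kept their direction and their side of the threshold, 71 no longer passed, 7 newly passed and 1 reversed, the 6-month striatal *Castor1* contrast, which was 0.078 against WT in place of WT + IPTG. Of the 70 results 55 were of *Ddit4l*, and most of the 1477 values came from leaving out a single library. *Ddit4l* in 12-month LacQ140 striatum lay between -2.26 and -2.01 and passed under each alternative run, single libraries left out included. In 12-month cortex the *Ddit4l* contrast of LacQ140 passed with pooled controls (-0.43, edgeR adjusted p = 0.0052), with the length slope as a covariate (-0.31, adjusted p = 0.036), with only the 2 groups in the fit (-0.37, adjusted p = 0.014) and against WT (-0.49, adjusted p = 0.0054), and LacQ140_A against LacQ140 passed with only the 2 groups in the fit (0.37, adjusted p = 0.0046). The 12-month striatal difference of *Ddit4l* between LacQ140_2M and LacQ140 did not pass with only the 2 groups in the fit (0.40, adjusted p = 0.074). It ran from 0.35 to 0.44 when single libraries were left out. The 6-month cortical IPTG value of *Ddit4l* ran from -0.27 to -0.22 likewise, and passed without WT + IPTG mouse M4. As a description, the WT + IPTG difference of *Ddit4l* between striatum and cortex at 6 months was 0.26 under filterByExpr in place of 0.30. The cause of these changes was not tested. Calls of *Castor1* and *Deptor* made up most of those lost: the IPTG rise of *Castor1* in 6-month striatum ran from 0.34 to 0.45 without single libraries. Replicate labels did not pair the mice across groups, since residuals of mice with the same label correlated by between 0.077 and 0.1 in the 4 tissue and age sets, against between 0.056 and 0.141 for other labels of the same sex. With a replicate block *Ddit4l* in 12-month LacQ140 striatum was -2.2, and the 6-month calls of *Castor1* for IPTG in striatum (0.41, adjusted p = 0.06) and of *Deptor* for lowering (0.30 and 0.31, adjusted p = 0.06 and 0.057) were lost. The SE of the 12-month striatal contrast of LacQ140 with WT + IPTG was 0.12 for *Castor1* and 0.06 for *Sesn1*, and counting error and spread between mice were not separated.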
